A study of Bos taurus with 24 samples.

Results

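TPCN1 (ENSBTAG00000011102) and RAB38 (ENSBTAG00000015793) are 2 of the 24616 genes in the deposited tables of bovine monocyte-derived macrophages (MDMs), and both encode proteins of the endolysosomal system. They were picked by name because the effect of E. coli on them after 18 hours was already known to be lower in high than in low responder cows. Their 18 hour values are therefore given as a description without a test, and tests were made on the 3 hour wells, which the choice did not use but which come from the same cows. TPCN1 had 2410 reads and RAB38 2134 reads over all libraries, so that single wells rest on between 1 and 389 reads.

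MDMs were grown from blood monocytes of 6 lactating Holstein cows over 6 days with granulocyte-macrophage colony-stimulating factor. Of these cows, 3 were high responders and 3 low responders, a division that the study made on the nitric oxide that such cells released after E. coli. For each cow and each of 2 time points (3 and 18 hours), 1 well stayed untreated as the control and 1 well received paraformaldehyde-inactivated E. coli at 5 bacteria per cell. This gave 24 mRNA libraries in 8 conditions of 3 cows each. All groups share breed, sex, lactation status and culture, and the phenotype groups differ in the cows themselves, so that anything else that differs between these cows cannot be told apart from the phenotype.

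TPCN1 is a two-pore channel, a cation channel in the membrane of endosomes and lysosomes that responds to the second messenger NAADP and to the lipid PI(3,5)P2 and is regulated by mTOR. RAB38 is a small GTPase closely related to RAB32. It directs cargo to lysosome-related organelles such as melanosomes, and its exchange factor is the BLOC-3 complex of HPS1 and HPS4. In macrophages both the channels and these GTPases belong to the compartment that takes up and digests bacteria.

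Library totals ranged from 6297190 to 20936554 expected counts (median 12375480), and no libraries were identical. Of 8 macrophage markers, 4 had an identifier here, and all 4 were detected in every library. CD68, a lysosomal macrophage glycoprotein, lay between 1215 and 2671 TPM (relative transcript abundance, a level per transcript length) and CD14, the LPS co-receptor, between 40.98 and 321 TPM. The B cell marker CD79A lay between 0.17 and 2.67 TPM. DCT, an enzyme of melanocytes, the cells in which RAB38 is best known, had no read in any library. The sum of the 4 macrophage markers was lower in the exposed than in the control wells of high responders, without overlap, at 2483 to 2536 against 3072 to 3800 TPM after 3 hours and at 2619 to 2937 against 2966 to 3681 TPM after 18 hours. In low responders these ranges overlapped, at 1653 to 2464 against 2041 to 3336 TPM and at 2442 to 2902 against 2259 to 3015 TPM. Single members went other ways in counts relative to library size (CPM). Mean CD68 in high responders was 1825 CPM (control) and 1839 CPM (exposed) after 3 hours, and 1541 and 2387 CPM after 18 hours. In low responders it was 1358 and 2093 CPM after 18 hours. Of all genes, 15.5% after 3 hours and 29.3% after 18 hours lay wholly lower in CPM in exposed wells of high responders. The sum is in TPM, which did not shift with exposure as CPM did, so that these shares are not its background. Mean RAB38 in high responders after 3 hours was 18.7 (control) and 18.6 TPM (exposed), but 8.30 and 11.1 CPM. Whether the scale gave the lower sum was not tested. The part of these markers in the results was not tested. In bulk RNA, fewer cells of a type and less RNA per cell cannot be told apart.

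TPCN1 after 3 hours was lower in the exposed well than in the control well of every cow, by a factor of 1.51 to 2.20 in high responders and of 1.09 to 2.03 in low responders. Levels within a gene are given as CPM, read counts relative to the library size, with edgeR's TMM scaling over all 24 libraries. In the control wells of high responders, TPCN1 lay at 11.1, 19.3 and 11.03 CPM, and in their exposed wells at 6.33, 8.78 and 7.31 CPM. The control and exposed wells of high responders did not overlap, as was the case with lower exposed wells for 15.5% of 11264 genes. In low responders it lay at 3.12, 5.23 and 8.50 CPM in the control wells and at 2.88, 3.47 and 4.19 CPM in the exposed wells. These ranges overlapped, and the cow with the highest control level had the largest reduction.

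With edgeR's quasi-likelihood test and Benjamini-Hochberg adjustment over 11264 genes, TPCN1 fell in high responders. The fitted value was -0.80 log2 units (SE 0.22), at an adjusted p of 0.0198 in edgeR. A gene was called when its adjusted p was below 0.05 and its fold change above 1.5, and 27.6% of all genes tested were called in this comparison (11.9% lower). The call was lost in the edgeR fit without the wells of the high responder pair numbered 92 (adjusted p = 0.063) and without the pair numbered 93 (adjusted p = 0.137), each with 3 low and 2 high responders. Numbers come from the library codes and name a pair of wells within a phenotype and time point, so that a number of 3 hours does not name the same cow at 18 hours. It was also lost without the replicate block that pairs the wells of a cow (adjusted p = 0.151) and when exposure was allowed to differ by library code (adjusted p = 0.347). In low responders the log2 fold change was -0.62 (SE 0.25), and edgeR's adjusted p was 0.110, in a comparison with 17.7% of genes called.

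The difference between both effects of E. coli on TPCN1 after 3 hours was -0.18 on the log2 scale (high minus low, 95% interval -0.93 to 0.57, edgeR adjusted p = 0.849). In this comparison 0.178% of genes were called. The interval covers 0 and reaches nearly 1 log2 unit below it.

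After 18 hours TPCN1 lay at 1.21 CPM or below in every exposed well. In high responders it lay at 16.2, 18.4 and 25.4 CPM in the control wells and at 0.544, 0.428 and 0.120 CPM in the exposed wells, where the libraries held 7, 5 and 1 reads. In low responders it lay at 7.99, 6.71 and 10.1 CPM in the control wells and at 0.964, 0.869 and 1.21 CPM in the exposed wells, with 15, 13 and 18 reads. Neither phenotype had overlap between control and exposed wells. Exposed wells lay wholly lower for 29.3% of all genes in high and for 25.2% in low responders.

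Per high responder cow, the control level was 29.7, 42.9 and 211 times the exposed level. The last value rests on 1 read against 389, and its 95% interval from the counts alone runs from 37.7 to 8362. In low responders the ratios were 8.29, 7.72 and 8.35. Their counting intervals were wider than this spread, at 4.75 to 15.5, 4.39 to 14.8 and 5.09 to 14.5. TPCN1 was chosen for this contrast, so that the ratios are a description. The counting intervals of the high responder pairs numbered 91 and 93 ran from 14.2 to 74.7 and from 18.2 to 133. All these intervals cover counting error only and not the spread between cows, so that they do not compare the phenotypes.

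The fitted log2 fold change of TPCN1 after 18 hours was -5.60 in high responders and -3.03 in low responders, and their difference was -2.56 (SE 0.47). Among the 11759 genes fitted, 33 had a lower fold change than TPCN1 in high responders and 160 in low responders, and 29 had a lower difference. These values belong to the contrast for which the gene was chosen. Of all genes, 39.6% were called in high responders, 29.1% in low responders and 1.62% for the difference (0.281% lower), which is given as background only.

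**Figure D1:**
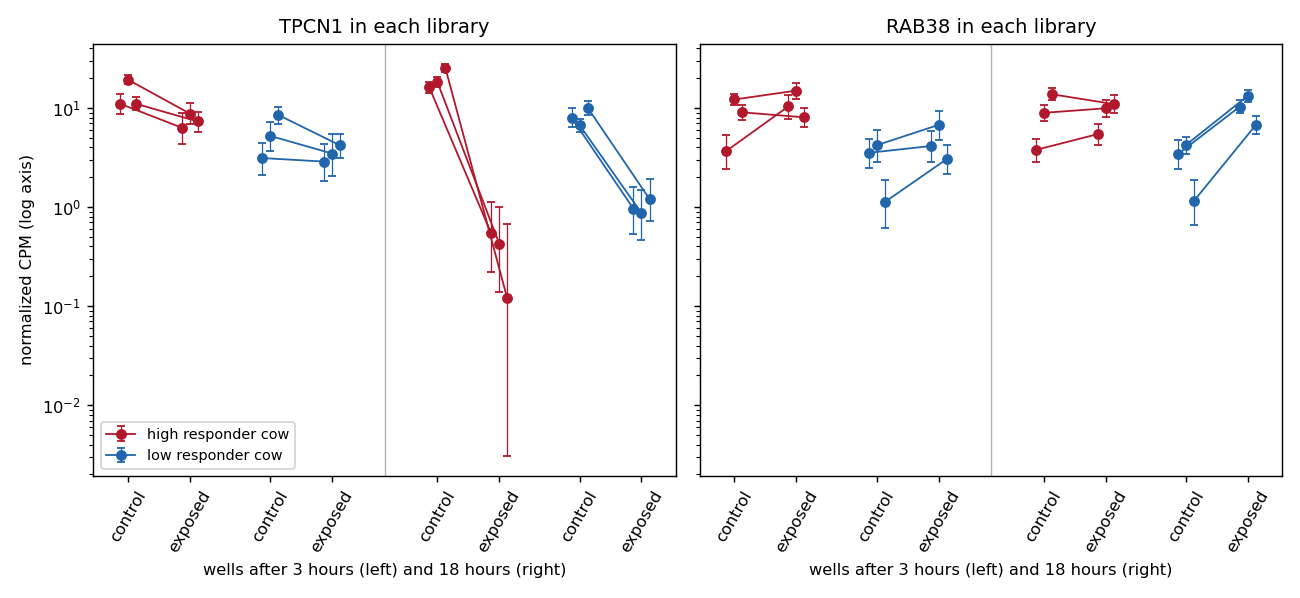
Normalized CPM (log axis) of TPCN1 (left panel) and RAB38 (right panel) in each of the 24 libraries, with lines joining the control and exposed well of a cow and bars for the 95% Poisson interval of the reads. TPCN1 lay between 0.120 and 1.21 CPM in the 6 exposed wells of 18 hours and above these in every other well, whereas RAB38 lay between 1.12 and 14.98 CPM throughout.

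RAB38 had another pattern. After 3 hours it lay at 3.68, 12.2 and 9.04 CPM in the control wells of high responders and at 10.4, 14.98 and 8.05 CPM in their exposed wells. Both sets overlapped, and 1 of the 3 cows had less RAB38 in the exposed well. In low responders it lay at 3.53, 4.21 and 1.12 CPM in the control wells and at 4.13, 6.75 and 3.04 CPM in the exposed wells. All 3 low responders had more RAB38 in the exposed well, by a factor of 1.17 to 2.71, but the wells overlapped between cows.

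Neither effect on RAB38 passed the test after 3 hours. The log2 fold change was 0.49 in high responders (SE 0.31, edgeR adjusted p = 0.253) and 0.74 in low responders (SE 0.37, edgeR adjusted p = 0.190). Their difference was -0.25, with a 95% interval from -1.34 to 0.84 (edgeR adjusted p = 0.853). The 95% intervals of the effects ran from -0.21 to 1.20 in high and from -0.09 to 1.58 in low responders. The libraries held 14 to 239 reads of RAB38.

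After 18 hours RAB38 was higher in the exposed than in the control wells of low responders and about level in high responders. In low responders it lay at 3.43, 4.24 and 1.16 CPM in the control wells and at 10.3, 13.3 and 6.77 CPM in the exposed wells, with no overlap, while 25.9% of all genes lay wholly higher in these exposed wells. The exposed level was 3.02, 3.14 and 5.84 times the control level. In high responders it lay at 3.77, 8.94 and 13.8 CPM in the control wells and at 5.44, 9.93 and 10.9 CPM in the exposed wells, which overlapped. The ratios of the high responders were 1.44, 1.11 and 0.794, so that 1 of the 3 cows had less RAB38 after exposure. RAB38 was chosen for this contrast too, so that these ratios are a description.

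The fitted log2 fold change of RAB38 after 18 hours was 0.07 in high responders and 1.82 in low responders, and the difference was -1.75 (SE 0.32). In low responders 336 of 11759 genes had a higher fold change than RAB38, and 107 genes had a lower difference. The difference has the same sign as that of TPCN1, but it is composed otherwise. For TPCN1 both phenotypes had lower levels in the exposed wells, and for RAB38 the low responders had higher levels there.

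**Figure D2:**
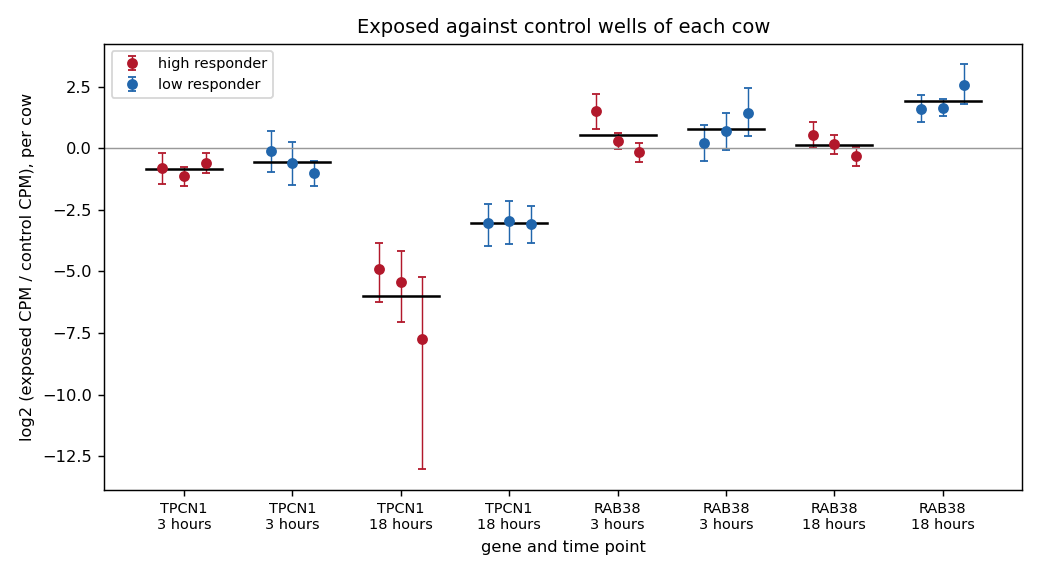
Log2 ratio of exposed to control CPM for each cow (points, with 95% intervals from the reads of the pair) and the mean of 3 cows (black lines), by gene and time point, with high responders in red and low responders in blue. For TPCN1 all 12 points lie below 0, and the 18 hour means are -6.01 in high and -3.02 in low responders. For RAB38 the 18 hour means are 0.12 in high and 1.93 in low responders. Both genes were chosen for their 18 hour difference.

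Mean levels of both genes were higher in the unexposed cells of high responders than in those of low responders, though neither gene passed the test after 3 hours. In the 3 hour control wells TPCN1 was at 13.8 ± 4.78 CPM (SD, n = 3) in high and 5.62 ± 2.71 CPM in low responders, with no overlap. The log2 difference was 1.3 (SE 0.43), the unadjusted p of edgeR's quasi-likelihood test was 0.0159 and the adjusted p over 11034 genes was 0.428. It was not called, and 0.00906% of genes were called in this comparison. Values of 5.97% of these genes lay wholly higher in the 3 high responders.

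RAB38 in the 3 hour control wells was at 8.30 ± 4.30 CPM in high and 2.95 ± 1.62 CPM in low responders, and the lowest high responder (3.68 CPM) lay below the highest low responder (4.21 CPM). The log2 difference was 1.52 (SE 0.60, edgeR adjusted p = 0.561). Both phenotypes held 1 cow that stood below the other 2, at 3.68 CPM in the high and 1.12 CPM in the low responders. At 18 hours the lowest control wells were at 3.77 CPM and 1.16 CPM. The library codes carry letters that recur within a phenotype at both times, and the labels do not say what they stand for. By letter, the control levels of RAB38 after 3 and 18 hours were 12.2 and 13.8 CPM (A), 9.04 and 8.94 CPM (I) and 3.68 and 3.77 CPM (M) in high responders. In low responders they were 3.53 and 4.24 CPM (A), 4.21 and 3.43 CPM (I) and 1.12 and 1.16 CPM (E), so that the lowest well of either phenotype had the same letter at both times.

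In the 3 hour exposed wells the order held for both genes. TPCN1 was at 7.47 ± 1.24 CPM in high and 3.51 ± 0.657 CPM in low responders, a log2 difference of 1.12 (SE 0.30, edgeR adjusted p = 0.229). RAB38 was at 11.1 ± 3.53 CPM against 4.64 ± 1.91 CPM, a log2 difference of 1.33 (SE 0.39, edgeR adjusted p = 0.251). The values of both genes did not overlap between phenotypes, as was the case with high responders higher for 8.47% of 10726 genes. By edgeR's test 0.0839% of the genes were called.

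After 18 hours the control wells still differed by 1.27 (TPCN1) and 1.55 (RAB38) on the log2 scale, at 19.98 ± 4.82 against 8.26 ± 1.69 CPM and at 8.83 ± 5.00 against 2.94 ± 1.60 CPM. TPCN1 did not overlap between phenotypes and RAB38 did, and 15.2% of all genes lay wholly higher in these control wells of high responders. Exposed wells stood the other way for TPCN1, at 0.364 ± 0.219 CPM in high and 1.01 ± 0.174 CPM in low responders, a log2 difference of -1.38 without overlap, and 12.3% of all genes lay wholly lower in these exposed wells of high responders. RAB38 lay at 8.77 ± 2.93 and 10.1 ± 3.27 CPM in the exposed wells, a log2 difference of -0.22, and its values overlapped. As background, edgeR called 0.15% of genes between phenotypes in the 18 hour controls and 0.0446% after 18 hours of exposure. The 18 hour difference of TPCN1 thus holds the higher level in the control wells of high responders as well as their lower level after exposure. That of RAB38 lies mostly in the control wells (1.55, against -0.22 in the exposed wells), with overlap between phenotypes in both.

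**Figure D3:**
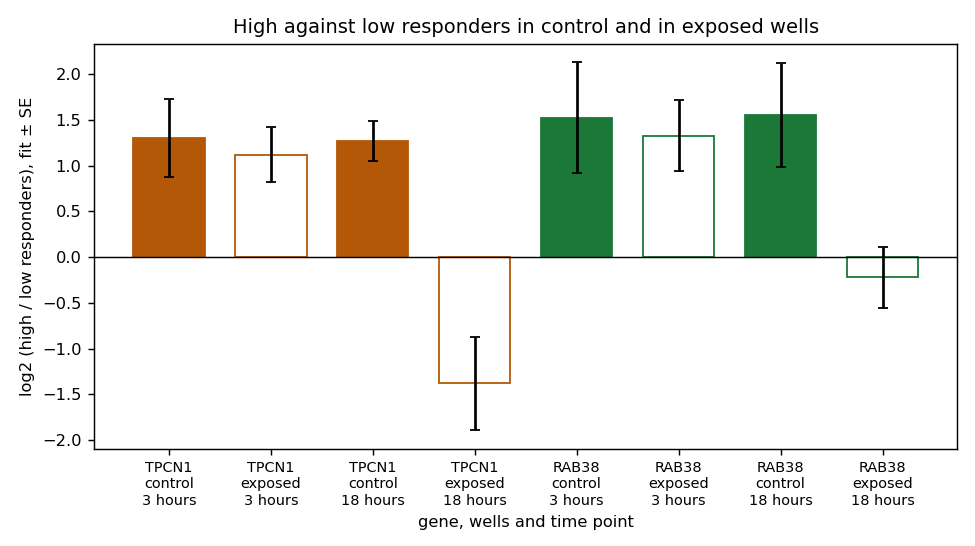
Fitted log2 ratio of high to low responders (bars, with the SE of the fit) in control wells (filled) and exposed wells (open), for TPCN1 (brown) and RAB38 (green) at both time points. The ratios of 3 hours and of the 18 hour controls lie between 1.12 and 1.55, and those of the 18 hour exposed wells are -1.38 and -0.22.

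Over the 8 conditions, TPCN1 was highest in the 18 hour and then the 3 hour control wells of high responders, and these 2 neighbours overlapped. The 18 hour control wells of low responders came next, set apart from those above. From there each condition overlapped the following one, through the 3 hour exposed wells of high responders, the 3 hour control wells of low responders and their 3 hour exposed wells. The 18 hour exposed wells of low and then of high responders came last, each without overlap with the condition above. The means spanned 19.98 to 0.364 CPM.

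RAB38 was highest in high responders after 3 hours of exposure, then in the 18 hour exposed wells of low responders, and lowest in the control wells of low responders at both times. All 7 pairs of neighbours in its order overlapped. The means spanned 11.1 to 2.94 CPM.

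On the TPM scale RAB38 (2.61 to 33.7 TPM) was above TPCN1 (0.06 to 16.5 TPM) in 21 of 24 libraries. The ratio of RAB38 to TPCN1 had a median of 1.85 in the 18 hour control wells and of 86.8 in the 18 hour exposed wells of high responders. In low responders the medians were 1.63 and 40.0. At 3 hours the medians lay between 2.41 and 6.20. Both genes have 1 transcript in the annotation, of 2544 bases for TPCN1 and 805 bases for RAB38, and their expected counts were whole in all 24 libraries, with no fractional share of reads.

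The levels of the 2 genes were not alike over libraries, with a Pearson r of log2 CPM of -0.19 over all 24 libraries, 0.34 over the 12 of 3 hours and -0.38 over the 12 of 18 hours. These libraries share cows and conditions, and r is given as a description. Among 11904 genes, of which 2284 had a symbol, the named genes most like TPCN1 over the 24 libraries were PARP1 (r = 0.951, rank 2 of all genes), GPR34 (r = 0.944, rank 4), LIG1 (r = 0.943, rank 5), DAB2 (r = 0.941, rank 6) and PTMA (r = 0.941, rank 7). PARP1 acts in DNA repair, LIG1 is a DNA ligase, DAB2 an adaptor of endocytosis, GPR34 a receptor for lysophosphatidylserine and PTMA a small nuclear protein. After 18 hours DAB2 lay at 525 ± 147 CPM (control) and 15.9 ± 1.24 CPM (exposed) in high responders, beside 183 ± 75.3 and 13.3 ± 2.7 CPM in low responders. GPR34 lay at 54.1 ± 16.2 and 0.152 ± 0.0935 CPM, beside 21.9 ± 7.34 and 0.242 ± 0.0362 CPM. The names of GPR34, LIG1, DAB2 and NEDD4L come only from table entries sorted by the p of the 18 hour difference.

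No named gene followed RAB38 as closely. POMT2, a protein O-mannosyltransferase, had the highest r among them (0.722, rank 10), followed by MYO1C, an unconventional myosin (0.704, rank 15), and the actin-binding TAGLN2 (0.691, rank 17). NEDD4L, a ubiquitin ligase, had an r of 0.634 (rank 39). TAGLN2 lay at 481 ± 52.4 CPM in the control and 695 ± 63.1 CPM in the exposed wells of low responders after 18 hours, and at 750 ± 37.8 and 803 ± 7.45 CPM in high responders.

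In the RefSeq annotation of ARS-UCD2.0, IQCD lies on chromosome 17 as TPCN1 does, and its gene does not overlap TPCN1. IQCD was looked up for its position. It had condition means of 1.24 to 1.78 CPM in control wells and of 0.227 to 0.818 CPM in exposed wells, so that it was low throughout. Its means were lower in exposed than in control wells of both phenotypes at both times. After 18 hours they went from 1.78 to 0.227 CPM in high and from 1.51 to 0.287 CPM in low responders. Whether this is related to TPCN1 was not tested.

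The other genes of the endolysosomal system were taken from 7 lists with 170 symbols. Identifiers were found for 37 of these besides TPCN1 and RAB38, since names came from the readable rows of the study's supplementary tables. For 22 genes the name stood in rows sorted by identifier, and 21 of them were tested. For 15 genes it stood only in rows sorted by the p of the 18 hour difference between phenotypes, and these are counted apart because their difference is not independent of how they were found. RAB27B, a relative of RAB38, had 88 reads and was not tested, and the other near partners of both genes, among them TPCN2, RAB32, HPS1 and HPS4, were not analysed here.

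After 3 hours, 1 of the 21 genes rose and 2 fell in high responders (14.3%, against 27.6% of all genes), and 2 fell in low responders (9.52%, against 17.7%). Their median log2 fold changes were 0.06 and -0.11, beside -0.01 and -0.03 over all genes. JPT2, which binds NAADP for the two-pore channels, fell by 0.90 in high and by 0.77 in low responders on the log2 scale (edgeR adjusted p = 0.000692 and 0.00317). HPS3, a subunit of the BLOC-2 complex of lysosome-related organelles, fell by 1.10 and by 0.93 (edgeR adjusted p = 0.00255 and 0.00932). ATP6V1A, the catalytic subunit of the proton pump V-ATPase, rose in high responders (0.61). The call of HPS3 in low responders was lost when the low responder pair numbered 92 or 93 was left out, and the call of ATP6V1A was lost without the high responder pair numbered 94.

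After 18 hours, 4 of the 21 rose and 7 fell in high responders (52.4%, against 39.6% of all genes), and 2 rose and 3 fell in low responders (23.8%, against 29.1%). Their medians were -0.24 and -0.08, beside -0.04 and 0.00 over all genes. GPNMB, a glycoprotein of melanosomes and lysosomes, fell by 3.60 in high and by 2.44 in low responders. TCIRG1, a membrane subunit of the V-ATPase, rose by 1.06 and by 0.87 (edgeR adjusted p = 2.87e-05 and 0.000166), and PIKFYVE, the kinase that makes PI(3,5)P2, fell by 0.70 in high responders. MLPH, which links RAB27A to a myosin, fell by 1.00 and by 1.26, but it had means of 0.418 to 3.73 CPM and lost its call in low responders without any 1 of the 3 low responder cows and in high responders without the pair numbered 91 or 94. VPS16, the core of the HOPS and CORVET tethers, fell by 0.63 in high responders and lost its call without the pair numbered 93. TMEM63A, a mechanosensitive channel, fell by 0.63 in low responders and lost its call without the pair numbered 91. The lysosomal protease gene CTSL rose by 0.96 in high responders and lost its call without the pair numbered 93. Its level in the control wells of high responders ran from 0.206 to 6.20 CPM, and its log2 fold change was 0.79, not called, without the replicate block and 2.16 when exposure was allowed to differ by library code.

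In the paired edgeR fit of each time point, no gene of the 21 was called for the difference between phenotypes. Of all genes, that fit called 0.178% after 3 hours and 1.62% after 18 hours. With shares this small, 21 genes cannot show fewer calls than all genes. At an unadjusted p below 0.05 there were 2 genes after 3 hours (12.7% of all genes passed) and 4 after 18 hours (17.6% of all genes passed), and DESeq2 called 0 and 1, the latter being GPNMB, which edgeR also called after 18 hours without a filter, with all 24 libraries in 1 fit and without the low responder pair numbered 91. Of all genes, DESeq2 called 1.99% for the 3 hour and 3.72% for the 18 hour difference. The differences of the 21 genes ran from -1.16 to 0.44 after 18 hours on the log2 scale, against -2.56 for TPCN1 and -1.75 for RAB38. TPCN1 and RAB38 were chosen for that value and the 21 genes were not.

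Among the 15 genes named from p-sorted rows, 4 rose and 1 fell in high responders after 3 hours (33.3%, against 27.6% of all genes), and 3 rose in low responders (20%, against 17.7%). After 18 hours 6 rose and 5 fell in high responders (73.3%, against 39.6%), and 3 rose and 2 fell in low responders (33.3%, against 29.1%). They hold the mucolipin channels, the other family of lysosomal cation channels beside the two-pore channels. MCOLN2 rose in both phenotypes and at both times, with log2 fold changes of 1.91 and 0.82 after 3 hours (edgeR adjusted p = 2.84e-05 and 0.00562) and of 2.33 and 1.66 after 18 hours (edgeR adjusted p = 8.70e-06 and 0.000118), high responders first. Its 3 hour call in low responders was lost without the pair numbered 92. MCOLN1, the channel that is mutated in mucolipidosis, fell by 0.68 in high responders after 18 hours, and MCOLN3 rose by 0.68 there, and both lost the call without the pair numbered 94.

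Per transcript length, the mean levels of MCOLN1 and MCOLN2 were above that of TPCN1 in high responders. After 18 hours MCOLN1 lay at 124 ± 27.6 TPM (control) and 59.4 ± 3.41 TPM (exposed) in high responders, and MCOLN2 at 17.5 ± 3.08 and 69.1 ± 15.97 TPM. TPCN1 lay at 12.9 ± 3.16 and 0.183 ± 0.112 TPM in the same wells. In control wells TPCN1 and MCOLN2 thus were of a like order, and in the exposed wells they stood far apart.

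RAB20, a GTPase of maturing phagosomes, had the largest fold change of the list genes after 3 hours, with 4.03 in high and 2.72 in low responders (edgeR adjusted p = 4.37e-05 and 0.000985), and it still was 1.74 and 0.98 after 18 hours. It went from 3.65 ± 2.50 to 57.4 ± 37.0 CPM in high responders after 3 hours. MITF, a transcription factor of lysosomal and pigment genes, rose by 1.79 and 1.07 after 3 hours, and its call in low responders was lost without the pair numbered 92. CLCN4, an endosomal chloride and proton exchanger, fell by 1.78 and by 0.78 after 18 hours. LYST, which controls lysosome size, rose by 1.12 in high responders after 3 hours.

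**Figure D4:**
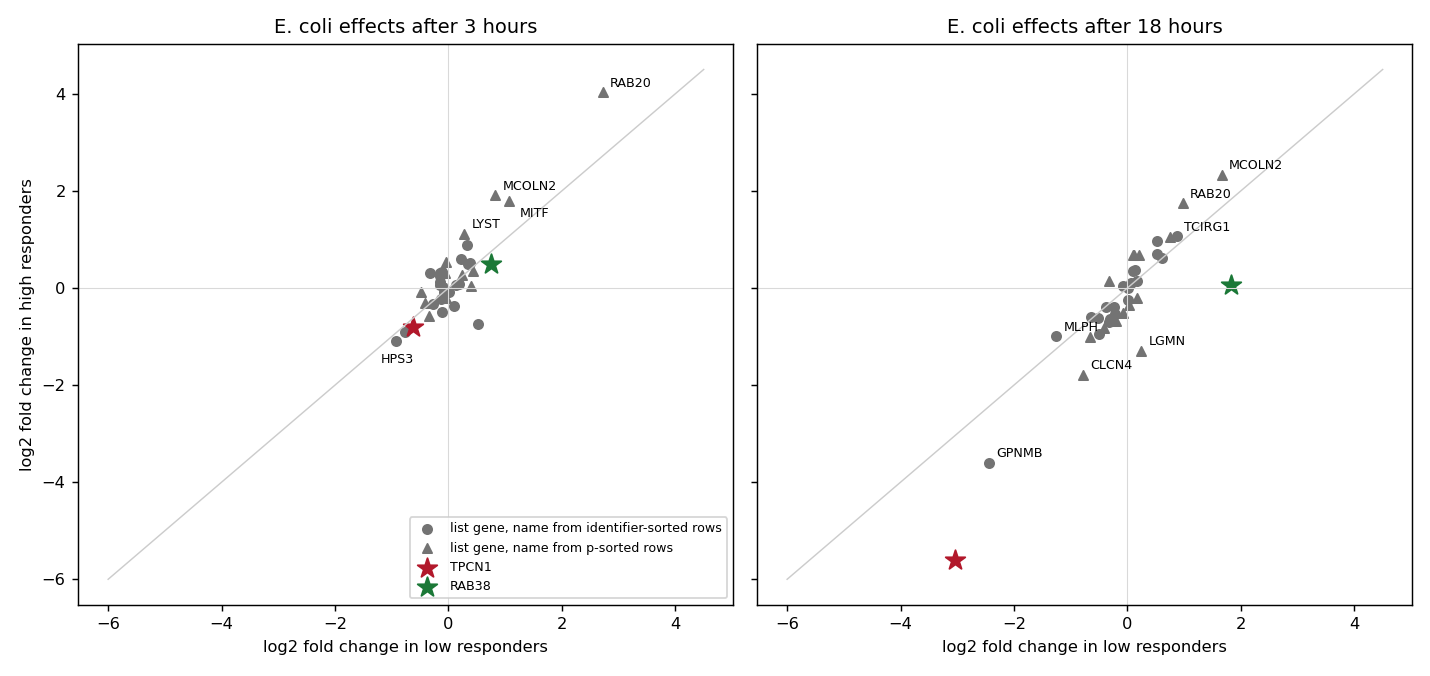
Log2 fold change of exposed against control wells in high responders (vertical axis) and low responders (horizontal axis) after 3 hours (left) and 18 hours (right), for 36 list genes (circles and triangles by the source of the name) and for TPCN1 and RAB38 (stars), with a line of equal effects. After 18 hours TPCN1 lies at -5.60 and -3.03 and RAB38 at 0.07 and 1.82, below the line, and MCOLN2 and RAB20 lie above it.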

How the data were processed

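Expected counts, TPM and effective lengths per Ensembl gene were deposited by the authors, who trimmed read pairs with Trimmomatic, checked them with FastQC 0.11.5, aligned with STAR against UMD 3.1 and quantified by RSEM; their differential tests used DESeq2 1.22.2, and strand settings of the counting are not given in the sources used here. The deposited expected counts are unnormalized estimates, and the deposited TPM are scaled by the authors for length and depth. TPM were used to compare genes and to give the marker levels, whose sums were also set side by side between control and exposed wells. TPM and CPM did not shift alike with exposure. Mean RAB38 in high responders after 3 hours was 18.7 TPM (control) and 18.6 TPM (exposed), but 8.30 and 11.1 CPM.

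Expected counts of the 24 libraries were rounded and fitted in R 4.3.3 with edgeR 4.0.16 (TMM, filterByExpr, quasi-likelihood), each time point by itself. The model held a cow term plus an E. coli effect for either phenotype. Phenotypes were compared within control or exposed wells in fits of 6 libraries. Adjusted p are Benjamini-Hochberg values over all genes tested. Log2 CPM for likeness used a prior count of 2. Counting intervals are at 95% (exact Poisson or binomial) and cover counting error only. The scripts were tested on simulated data.

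Wells of the same phenotype, time and library code number were taken as paired, which the labels do not state in words. Their deviations from condition means had correlations from 0.327 to 0.732 (12 pairs of like number), against -0.568 to 0.00521 for 24 pairs of unlike number. Deviations from a mean cancel out within a condition, so that positive values for like numbers force negative ones for unlike numbers. The negative values are therefore no separate evidence of the pairing. Replicates are separate cows.

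The members, lists and rules were chosen with earlier results of these data known. Named genes are near relatives and partners with an identifier, up to 2 called genes per list, comparison and direction with the largest fold change, and the 5 named genes with the highest r, of which 1 for RAB38 is not reported here. Symbols of 2803 genes were read from the study's supplementary tables, 1831 from rows sorted by identifier and 972 only from rows sorted by p. Alternatives were DESeq2 1.42.0 and its size factors, other filters (none, or a mean of 50 counts), offsets for effective length, no replicate block, all 24 libraries in 1 fit, a split of exposure by library code (numbers 93 and 94 apart from 91 and 92), and omission of 1 cow at a time. The split by library code gives effects within a phenotype for pairs numbered 91 and 92, with a shared shift for 93 and 94 in both phenotypes. Coordinates and sequences are not given because no genome of the files' build was used here.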

Additional observations from a re-analysis of the deposited data

Results flagged for a closer look

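LGMN, a lysosomal protease gene of the lists, differed between the phenotypes after 18 hours in its response to E. coli, by -1.54 on the log2 scale (high minus low, SE 0.23, adjusted p = 0.0138 by edgeR's quasi-likelihood test with Benjamini-Hochberg adjustment). It fell by 1.3 in high responders, from 3170 ± 998 to 1310 ± 457 CPM (SD, n = 3), and its log2 fold change was 0.24 in low responders, from 1029 ± 351 to 1183 ± 59.3 CPM. In the control wells the log2 difference between high and low responders was 1.61 (edgeR adjusted p = 0.0662). Its name was read from rows sorted by this difference, so that the call is not independent of how the gene was found. The call was lost without the replicate block (-1.47) and when exposure was allowed to differ by library code (-1.50).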

How the results depend on the processing

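TPCN1 in high responders after 3 hours lost its call without the replicate block (-0.84), with exposure by library code (-0.54) and without the pair numbered 92 or 93 (range with each cow left out -0.96 to -0.62). In low responders that range was -0.83 to -0.34, with a call without the high responder pair numbered 94. The 3 hour difference of TPCN1 ran from -0.46 to 0.03 and that of RAB38 from -0.63 to 0.04 with a cow left out, so that the signs turned (0.01 and 0.03 in TPCN1, 0.00 and 0.04 in RAB38). The 3 hour control wells gave a call for TPCN1 in 1 of 13 fits, that with all 24 libraries (1.29, adjusted p = 0.0487 in edgeR). That fit had no cow term for this comparison, so that wells of the same cow counted as independent. It also took in the 18 hour libraries, and the call is therefore not a result. The 18 hour effect on TPCN1 in low responders was -2.88 with exposure by library code. With a cow left out, the 18 hour difference lay between -3.10 and -2.09 for TPCN1 and between -1.92 and -1.51 for RAB38.

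Of the 21 list genes, 1 was called after 3 hours in high responders with exposure by library code and 1 in low responders without the replicate block (1 to 2 with a cow left out). After 18 hours, 3 to 5 were called in low responders with a cow left out. The 18 hour difference was called in 1 gene, GPNMB, without a filter, with DESeq2, with all libraries in 1 fit and with a cow left out (0 to 1). The replicate block changed no other count of list genes by more than 1.5 times. Of 40 calls of named list genes, 31 were kept without the replicate block (lost were ATP6V1A, CLCN4 and LYST in high and JPT2 and MITF in low responders after 3 hours, CTSL in high responders and MLPH in both after 18 hours, and the difference of LGMN), and 30 with exposure by library code. Stricter filtering left out TPCN1 in the exposed wells of 3 hours, so that it has no value there. TPCN1 had 13 reads over the exposed high responder wells of 18 hours.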
